A study of Mus musculus with 4 samples.

Results

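Compaction of the mouse morula rests on genes for cell adhesion and for the contractile cortex, and 9 of them are described here: Cdh1, Ctnnb1, Ctnna1, Ctnnd1, Vcl, Ezr, Rhoa, Myh9 and Myh10. They were chosen by symbol for their known roles, with earlier results of these data known. All 9 were found among the 24411 genes of each file. All 9 also passed the filter on low counts, which 13585 genes passed. The embryos were of the ICR strain, an outbred mouse stock. They came from in vitro fertilization and were electroporated at the 1-cell stage (3 hpi, as the labels write it) with siRNA against Pwp1 (siPwp1, 2 libraries) or with control siRNA (siControl, 2 libraries). The product of Pwp1 has WD repeats and takes part in making ribosomal RNA. Embryos of both groups then grew in albumin-supplemented KSOM until 72 hpi, and each library pooled 10 morulae, so embryo-to-embryo spread was not measured. The labels do not say whether replicates were separate cultures, so p-values cover only the spread between these libraries.

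Libraries were compared on CPM (expected counts over the TMM-scaled library total) and genes on TPM, the deposited measure per transcript length. The libraries held 28981358 to 48765229 expected counts, with 15149 to 15976 genes above 0. Pwp1 itself stood at 36.9 and 37.2 CPM in siPwp1 replicates 1 and 2, against 215.4 and 364.9 CPM in siControl replicates 1 and 2. Even this difference, a log2 fold change of -2.97 (SE 0.333), did not pass the edgeR test with 2 libraries a group (adjusted p = 0.2204). The 8 listed morula markers, among them Nanog and Pou5f1, were all detected and summed to 841.9 and 976.3 CPM in siPwp1, against 1305 and 1109 CPM in siControl. Sox2 was the weakest of them, with 37 and 7 counts in siPwp1, against 235 and 9 in siControl. For 4 of the 8 both siPwp1 libraries lay below both siControl libraries, against 14.1% of all genes. These were Nanog, Pou5f1, Sall4 and Tfcp2l1. Marker sums for sperm reached at most 1.03 CPM in siPwp1 and 1.22 CPM in siControl, with Akap4 at 0 in all libraries. Those of fibroblasts reached 6.83 and 1.73 CPM, nearly all of it Postn, with Col3a1, Dcn and Lum at 0. Those of cumulus and granulosa cells reached 19.1 and 10.7 CPM, nearly all of it Amhr2, with Cyp19a1 and Inhba at 0. Blood and immune markers summed to 107.9 and 110.1 CPM in siPwp1, against 58.9 and 90.3 CPM in siControl, with Hbb-bs and Hbb-bt at 0. Nearly all of it was Cd74 and the alpha-globin gene Hba-a2. Cd74 stood at 63.7 and 64.8 CPM in siPwp1, against 46.2 and 55.5 CPM in siControl. Hba-a2 stood at 39.3 and 39.1 CPM in siPwp1, against 11.3 and 31.7 CPM in siControl. For 3 of the 6 tested blood and immune markers both siPwp1 libraries lay above both siControl libraries, against 14.7% of all genes. The same held for Postn and Amhr2, each the only tested marker of its list. It did not hold for Odf1, the only tested sperm marker, whose groups overlapped. The part of these marker levels in the values below was not tested.

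In compaction the rounded blastomeres of the embryo flatten against each other and their outlines merge. E-cadherin, encoded by Cdh1, binds E-cadherin on the neighbouring cell, and its cytoplasmic tail carries the catenins, which connect it to actin. Tension for the change of shape comes from the actin cortex, where nonmuscle myosin II pulls on actin filaments under control of the small GTPase RhoA. Ezrin, encoded by Ezr, ties the membrane to the cortex and collects at the outer, apical face of the blastomeres.

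The RefSeq promoter table (GRCm38.p6) held 10 windows for 7 of the 9 members, each running from 250 bases before to 50 bases after an annotated start. Shown are 6 of them, as examples with CCAAT boxes (Vcl and Myh10, which hold the most, and Ctnnb1) and without (the other Ctnnb1 window, Ezr and 1 window of Rhoa). They were chosen for their letters, after the members' levels had been seen. Vcl, with the box, and Ezr, without it, were both highest in siControl replicate 1. Capitals mark CCAAT boxes (CCAAT on either strand) and, in Vcl, also a CArG box, the motif bound by serum response factor.
Ctnnb1, chr9:120933150-120933449, plus strand: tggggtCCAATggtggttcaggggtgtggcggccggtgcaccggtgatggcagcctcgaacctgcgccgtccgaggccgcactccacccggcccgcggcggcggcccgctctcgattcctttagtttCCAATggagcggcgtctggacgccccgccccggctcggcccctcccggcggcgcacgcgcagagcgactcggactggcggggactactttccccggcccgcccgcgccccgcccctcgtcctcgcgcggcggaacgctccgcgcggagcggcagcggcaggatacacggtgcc
Ctnnb1, second window, chr9:120933328-120933627, plus strand: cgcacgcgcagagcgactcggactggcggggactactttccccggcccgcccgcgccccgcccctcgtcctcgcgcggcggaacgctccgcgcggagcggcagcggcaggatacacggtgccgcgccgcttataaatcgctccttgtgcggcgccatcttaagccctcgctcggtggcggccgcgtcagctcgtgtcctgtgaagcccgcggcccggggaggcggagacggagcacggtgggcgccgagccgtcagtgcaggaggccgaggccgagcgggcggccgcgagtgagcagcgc
Vcl, chr14:20929148-20929447, plus strand: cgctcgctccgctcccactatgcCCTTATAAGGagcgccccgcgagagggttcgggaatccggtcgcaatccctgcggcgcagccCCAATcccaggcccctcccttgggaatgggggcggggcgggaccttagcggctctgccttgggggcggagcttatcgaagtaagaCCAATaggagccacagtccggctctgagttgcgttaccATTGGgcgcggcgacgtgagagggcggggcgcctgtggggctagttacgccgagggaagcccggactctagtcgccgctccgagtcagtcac
Ezr, chr17:6782731-6783030, minus strand: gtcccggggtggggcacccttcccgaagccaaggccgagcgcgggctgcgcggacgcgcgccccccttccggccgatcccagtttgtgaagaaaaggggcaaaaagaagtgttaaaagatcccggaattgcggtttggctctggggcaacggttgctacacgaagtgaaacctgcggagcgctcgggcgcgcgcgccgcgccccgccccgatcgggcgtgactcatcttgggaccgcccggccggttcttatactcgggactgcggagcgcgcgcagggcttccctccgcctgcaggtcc
Myh10, chr11:68691665-68691964, plus strand: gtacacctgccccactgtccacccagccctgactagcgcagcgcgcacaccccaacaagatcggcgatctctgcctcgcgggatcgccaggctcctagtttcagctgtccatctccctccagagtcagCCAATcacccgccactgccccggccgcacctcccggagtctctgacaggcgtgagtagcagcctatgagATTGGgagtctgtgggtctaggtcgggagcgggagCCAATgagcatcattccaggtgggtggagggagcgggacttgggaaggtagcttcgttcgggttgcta
Rhoa, chr9:108305910-108306209, plus strand: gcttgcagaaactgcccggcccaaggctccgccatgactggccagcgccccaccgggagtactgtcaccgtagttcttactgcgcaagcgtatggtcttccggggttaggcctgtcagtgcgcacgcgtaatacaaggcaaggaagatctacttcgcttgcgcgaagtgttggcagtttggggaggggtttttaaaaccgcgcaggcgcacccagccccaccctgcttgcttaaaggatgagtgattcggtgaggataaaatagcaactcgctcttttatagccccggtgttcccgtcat

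Of 5 motifs searched on both strands, the CCAAT box was in 6 of the 10 member windows, against 37.4% of all 32851 promoters of the table. These windows belong to Ctnnb1, Ctnnd1, Vcl, Myh9 and Myh10, and windows of 1 gene can overlap. Its letters were in neither window of Rhoa nor in the window of Ezr. Vcl and Myh10 held 3 CCAAT boxes each. The CArG box was in 1 of the 10 windows, that of Vcl, against 1.63% of all promoters. The GC box (GGGCGG) was in 6 windows, against 35.7% of all promoters, and the TEAD site (GGAATG) in 2, those of Vcl and Myh10, against 14.7%. The E-box (CANNTG) was in 4 windows, against 72.3% of all promoters. Matches overlapped in 3 places: a pair of GC boxes by 1 base in Vcl, the TEAD site and an E-box by 1 base in Myh10, and a pair of GC boxes by 2 bases in the Rhoa window that is not shown. A match of letters is a description and no binding site, and a motif not matched says only that its letters are not in this window.

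Gene positions follow GENCODE M21, whose assembly (GRCm38) is that of mm10. Cdh1 is on chromosome 8 at 106603351 to 106670246, Ctnnb1 on chromosome 9 at 120929216 to 120960507, Ctnna1 on chromosome 18 at 35118859 to 35254779 and Vcl on chromosome 14 at 20929398 to 21033676, all on the plus strand. Rhoa is on chromosome 9 at 108306129 to 108337934 and Myh10 on chromosome 11 at 68691559 to 68816632, also on the plus strand. Ctnnd1 is on chromosome 2 at 84600071 to 84650765, Ezr on chromosome 17 at 6738041 to 6782784 and Myh9 on chromosome 15 at 77760587 to 77842175, on the minus strand. All are protein-coding, with between 6 exons (Rhoa) and 43 exons (Myh10) in the transcript with most exons. Exons of Ctnna1, Ctnnb1, Ezr, Vcl and Rhoa overlap exons of Lrrtm2, Ulk4, Sytl3, Ap3m1 and Tcta on the other strand, in the same order. The strand setting of the counting is not given in the sources used here, so reads in these overlaps cannot be told apart. Of these partners Ap3m1, which overlaps Vcl, was at 134 to 176 CPM, and the others did not exceed 3.44 CPM. Exons also overlap on the same strand for Ctnnd1 (Gm28635) and Ctnnb1 (Mir7090), and on the other strand for Rhoa (Gm37401). Mir7090 was at 0 CPM, and the levels of Gm28635 and Gm37401 are not given here.

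By TPM, Rhoa was the highest member in every library, at 312.1 and 402.5 TPM in siPwp1 and at 314.6 and 405.6 TPM in siControl. It lay above 96.3% of the tested genes by mean TPM. Below it followed Ctnnb1 (mean over the 4 libraries 44.1 ± 10.8 TPM, SD), Ctnna1 (36.7 ± 10.5), Ctnnd1 (24.1 ± 6.25), Cdh1 (21.3 ± 8.88), Myh10 (8.94 ± 3.23), Vcl (5.51 ± 1.78), Ezr (4.64 ± 2.09) and Myh9 (1.37 ± 0.529), in TPM. The ranges over libraries did not overlap at 3 places in this order, below Rhoa, Cdh1 and Ezr. Elsewhere the ranges of neighbours overlapped, although Ctnnb1 was above Ctnna1, Ctnna1 above Ctnnd1 and Myh10 above Vcl within each of the 4 libraries. Ctnnd1 and Cdh1 changed places in siControl replicate 1, and Vcl and Ezr in siPwp1 replicate 2. The order by mean CPM was the same.

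**Figure D1:**
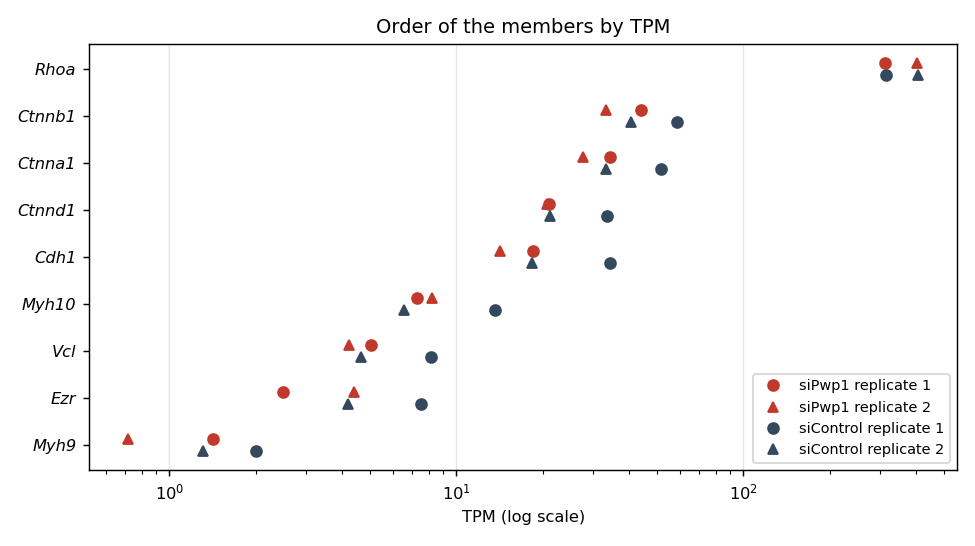
Level of each member in each library, in TPM on a logarithmic axis, with siPwp1 above siControl for each gene, circles for replicate 1 and triangles for replicate 2. Rhoa lies apart at 312.1 to 405.6 TPM, and Myh9 is lowest at 0.72 to 2.01 TPM.

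Cdh1, the adhesion receptor itself, stood at 75.5 and 56.2 CPM in siPwp1 replicates 1 and 2, against 144.7 and 71.7 CPM in siControl replicates 1 and 2. One library, siControl replicate 1, was high, at 1.92 times the next library, while the other 3 lay within 1.34-fold of each other, and the groups overlapped. The log2 fold change of siPwp1 over siControl was -0.72 (SE 0.384, edgeR adjusted p = 0.9998). The 95% exact Poisson interval was 140.4 to 149.2 CPM in siControl replicate 1 and 69.2 to 74.2 CPM in siControl replicate 2. Such intervals treat each read as an independent count and cover counting error only. The spread that arises when a library is prepared was not tested. In pooled embryos, fewer cells of a type and less RNA per cell cannot be told apart.

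The catenins were also highest in siControl replicate 1, though by less than Cdh1. Ctnnb1 encodes beta-catenin, which binds the cadherin tail and also acts in Wnt signalling, and stood at 136.9 and 100.2 CPM in siPwp1, against 189.1 and 121.1 CPM in siControl, replicate 1 before 2 in each group. Ctnna1 encodes alpha-catenin, the link from beta-catenin to actin, and stood at 115.6 and 89.6 CPM in siPwp1, against 179.5 and 106.5 CPM in siControl. For both genes siControl replicate 1 was highest, siPwp1 replicate 2 lowest, and siControl replicate 2 lay between the siPwp1 libraries. For Ctnnb1 the highest library was 1.38 times the next, a gap no larger than the 1.37-fold spread of the other 3. For Ctnna1 these values were 1.55 times and 1.29-fold. Ctnnd1 encodes p120-catenin, which holds cadherin at the membrane, and stood at 99.996 and 94.951 CPM in siPwp1, against 164.0 and 96.8 CPM in siControl. Here 3 libraries lay within 1.05-fold of each other and siControl replicate 1 was 1.64 times the highest of them. The log2 fold changes were -0.39 (SE 0.316) for Ctnnb1, -0.48 (SE 0.327) for Ctnna1 and -0.42 (SE 0.314) for Ctnnd1, each with an edgeR adjusted p = 0.9998. On the TPM scale the Ctnnd1 groups did not overlap, by a narrow margin, at 21.0 and 20.7 TPM in siPwp1, against 33.4 and 21.2 TPM in siControl, as in 13.7% of all genes in that direction.

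Vcl and Ezr encode linkers to the cortex. Vinculin, the product of Vcl, binds alpha-catenin under tension, and its gene stood at 24.7 and 20.0 CPM in siPwp1, against 41.0 and 21.8 CPM in siControl. For Vcl, siControl replicate 1 was at 1.66 times the next library and the other 3 lay within 1.23-fold. Ezr stood at 6.89 and 11.7 CPM in siPwp1, against 21.4 and 11.1 CPM in siControl. Its lowest library was siPwp1 replicate 1, while siPwp1 replicate 2 and siControl replicate 2 were close to each other. The log2 fold changes were -0.49 (SE 0.394) for Vcl and -0.81 (SE 0.483) for Ezr, which was the most negative of the 9, with an edgeR adjusted p = 0.9998 for each.

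Rhoa, which encodes a GTPase upstream of myosin activity, stood at 574.3 and 712.2 CPM in siPwp1, against 596.6 and 712.4 CPM in siControl. Its libraries paired by replicate number and not by group, with both replicate 2 libraries above both replicate 1 libraries, and the whole range was 1.24-fold. Its log2 fold change was -0.03 (SE 0.24). Myh9, the heavy chain gene of nonmuscle myosin IIA, stood at 10.1 and 4.92 CPM in siPwp1, against 14.6 and 8.85 CPM in siControl, and siPwp1 replicate 2 held only 148 counts of it (95% exact Poisson interval 125.1 to 173.9). Its log2 fold change was -0.64 (SE 0.506). Myh10, the heavy chain gene of nonmuscle myosin IIB, stood at 54.0 and 59.1 CPM in siPwp1, against 104.5 and 46.6 CPM in siControl. Both siPwp1 libraries of Myh10 lay between the siControl libraries, and its log2 fold change was -0.42 (SE 0.402). The edgeR adjusted p was 0.9998 for each of these 3 genes.

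**Figure D2:**
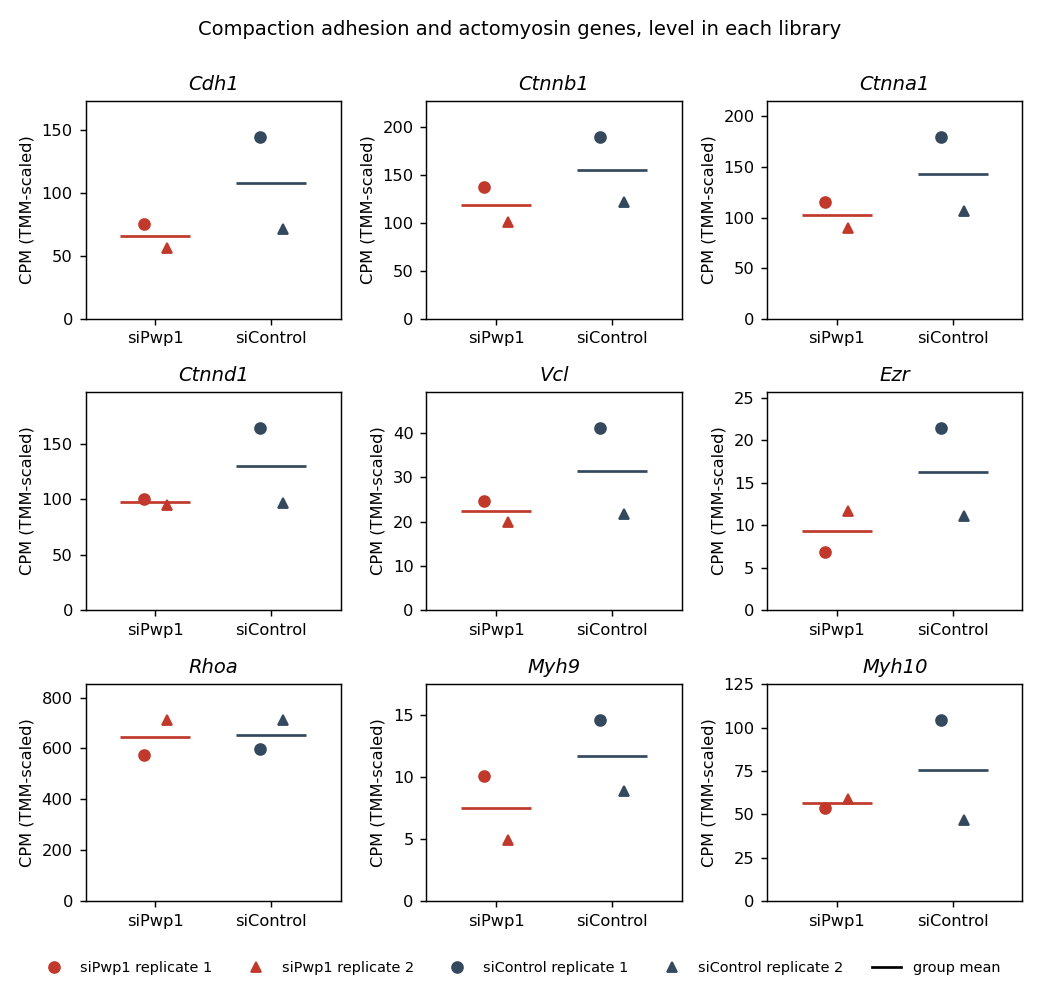
Level of each member in the 4 libraries in TMM-scaled CPM on axes that start at 0, with siPwp1 left of siControl, circles for replicate 1, triangles for replicate 2 and a line at each group mean. In 8 of the 9 panels siControl replicate 1 is the highest point, and in Rhoa both replicate 2 libraries are.

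Across the members, the comparison of siPwp1 with siControl gave 0 calls. edgeR called 0 of the 9 at an adjusted p under 0.05, against 0.0% of all 13585 genes in either direction. At an unadjusted p under 0.05 it held 0 members, against 1.84% of all genes higher and 0.824% lower. DESeq2 called 0 members, against 0.309% of all genes higher and 0.0147% lower, while the limma fit of log2(TPM + 1) called 0 members and 0.0% of 9754 genes. In 0 of the 9 did the CPM of both siPwp1 libraries lie above or below both siControl libraries, against 14.7% of all genes above and 14.1% below. All 9 fitted log2 fold changes were below 0, with a median of -0.48, against -0.001 over all genes tested. That median was -0.63 without siPwp1 replicate 1 and -0.34 without siPwp1 replicate 2, and it moved further when a siControl library was left out. siControl replicate 1 was the highest of the 4 libraries in 8 of the 9 members, against 31.2% of all genes, and siControl replicate 2, siPwp1 replicate 1 and siPwp1 replicate 2 were highest in 20.9%, 20.1% and 27.8% of all genes. Without it, the median log2 fold change of the members was -0.05, with 6 below 0 and 3 above it, the 3 being Ctnnd1, Vcl and Myh10. Without siControl replicate 2 the median was -0.88, and 6 members had an unadjusted edgeR p under 0.05, against 3.25% of all genes lower and 6.43% higher. The smallest adjusted p of a member there was 0.172, for Cdh1. That fit has a single siControl library, the one highest in 8 members, and takes it to vary like the siPwp1 pair. With any 1 library left out, the log2 fold change ranged from -1.14 to -0.12 for Cdh1, from -0.81 to -0.05 for Ctnna1, from -0.67 to -0.03 for Ctnnb1, from -1.23 to -0.26 for Ezr and from -1.25 to -0.21 for Myh9. A p above the threshold does not show that levels were equal.

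**Figure D3:**
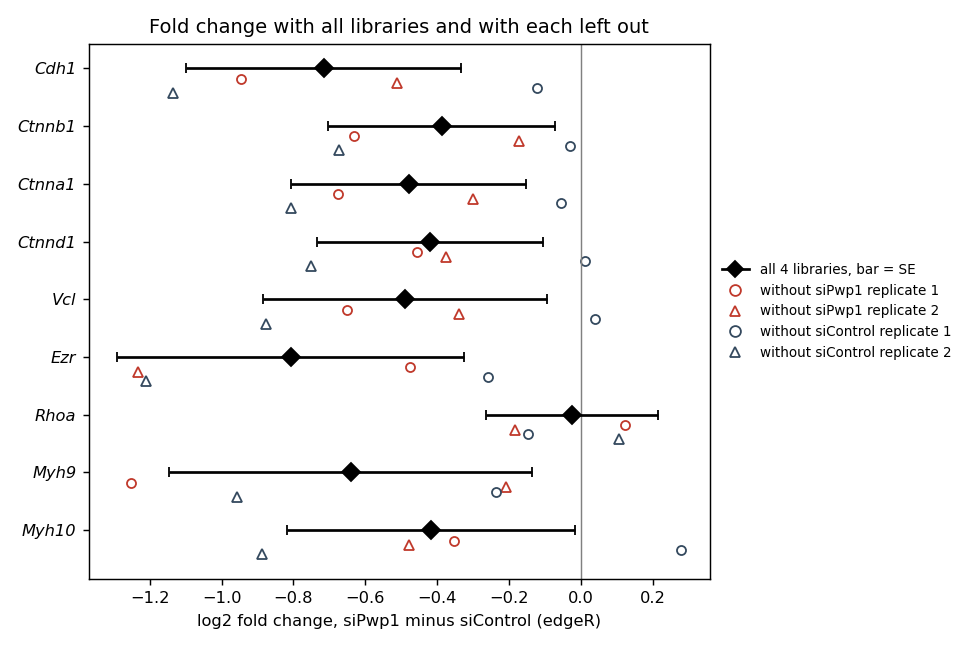
Log2 fold change of each member, siPwp1 minus siControl, from edgeR with all libraries (diamonds, bars are 1 SE) and with each library left out (open symbols). Leaving out siControl replicate 1 gives values from -0.26 to 0.28, and the lowest values are those of Myh9 without siPwp1 replicate 1 (-1.25) and Ezr without siPwp1 replicate 2 (-1.23).

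The difference between replicates was larger in siControl than in siPwp1 for 7 of the 9 members, and smaller for Myh9 (-0.72 in siControl) and Rhoa. In siControl, replicate 2 was below replicate 1 for 8 members, by -0.64 (Ctnnb1) to -1.17 (Myh10) in log2 CPM, and above it for Rhoa by 0.26. All 8 lay outside the middle of the distribution of all genes, whose quartiles for this difference were -0.57 and 0.54. In siPwp1, replicate 2 was below replicate 1 for 6 members, from -0.08 (Ctnnd1) to -1.04 (Myh9), and above it for Myh10 by 0.13, Rhoa by 0.31 and Ezr by 0.76. The quartiles over all genes were there -0.47 and 0.45, and the median of the members was -0.30. Replicate 2 was thus below replicate 1 in both groups for 6 of 9 members, against 33.9% of all genes, and above it in both groups for Rhoa alone among the 9, against 32.6%.

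**Figure D4:**
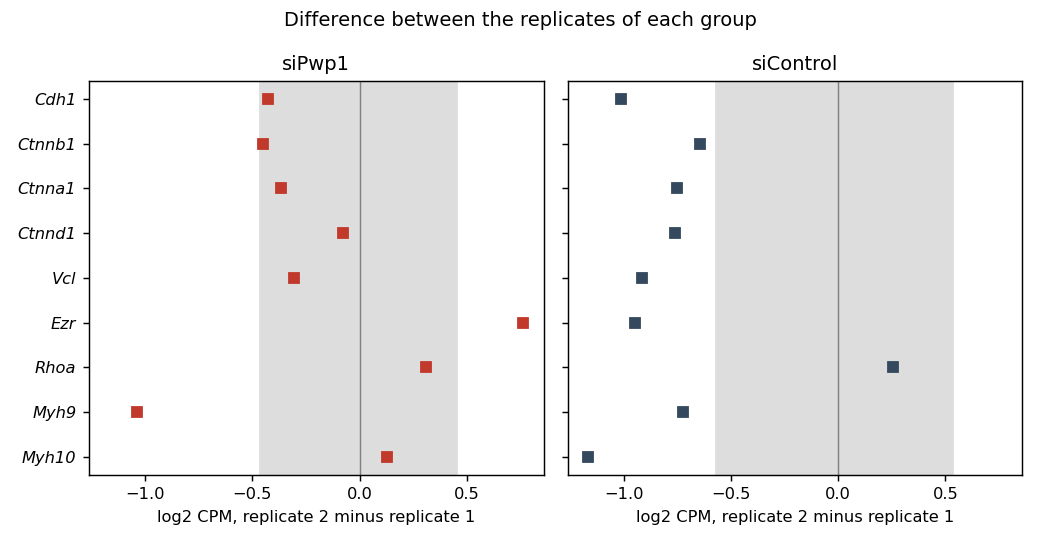
Log2 CPM of replicate 2 minus replicate 1 for each member within siPwp1 (left) and siControl (right), with the range between the quartiles of all tested genes shaded. In siControl 8 of the 9 members lie left of the shading, and in siPwp1 only Myh9 does.

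Most of the listed genes that mark the outer, trophectoderm-directed cells differed between the same libraries. Cdx2 stood at 5.76 and 0.897 CPM in siPwp1 replicates 1 and 2, against 15.4 and 2.14 CPM in siControl replicates 1 and 2. Krt8 stood at 116.4 and 21.3 CPM in siPwp1, against 192.7 and 15.6 CPM in siControl. All 8 genes of that list were detected and their sum was 729.2 and 448.4 CPM in siPwp1, against 990.7 and 461.4 CPM in siControl, with Elf5 at 0 outside siControl replicate 1. Of the 7 that passed the filter, 6 had replicate 2 below replicate 1 in both groups and 5 were highest in siControl replicate 1. The shares over all genes were 33.9% and 31.2%. Dab2, the largest part of the sum, was nearly level, at 337.3 and 359.0 CPM in siPwp1, against 390.1 and 394.8 CPM in siControl. Id2 was highest in siPwp1 replicate 1, at 56.2 CPM, against 47.9 CPM in siControl replicate 1. The part of stage or of outer cells in the members' levels was not tested.

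A ratio between members within a library does not depend on how that library is scaled. The TPM ratio of Ctnnb1 to Cdh1 was 2.38 and 2.34 in siPwp1, against 1.71 and 2.21 in siControl. That of Ctnna1 to Cdh1 was 1.86 and 1.94 in siPwp1, against 1.51 and 1.81 in siControl. These 2 of the 5 ratios computed did not overlap between groups, each with the smallest p that 2 against 2 allows (two-sided exact permutation p = 0.333). The share over other genes covers the 12773 tested genes, without Cdh1, that had a TPM above 0 in every library. Of these, 34.0% had a TPM ratio to Cdh1 that was higher in both siPwp1 libraries than in both siControl libraries. For 1.15% it was lower in both. The ratio of Ctnnd1 to Cdh1 overlapped, at 1.14 and 1.45 in siPwp1, against 0.974 and 1.16 in siControl (exact permutation p = 0.667). The ratio of Ezr to Cdh1 was 0.135 and 0.308 in siPwp1, against 0.219 and 0.229 in siControl (exact permutation p = 1). Myh10 exceeded Myh9 in every library, by 5.11-fold and 11.5-fold in siPwp1, against 6.80-fold and 5.02-fold in siControl (exact permutation p = 0.667).

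Likeness of pattern was measured as the root mean square difference in log2 CPM, centred for each gene, over the 4 libraries. Among the members, Ctnna1 and Ctnnb1 were each other's nearest, with a difference of 0.061, and Vcl lay as near to Ctnna1, at 0.062. Rhoa was the farthest member from 6 of the other 8, and its own nearest, Ctnnd1, was 0.421 away. Ezr was 0.334 from its nearest, Myh10. Of 8254 other genes with a mean of at least 5 CPM, those nearest to Cdh1 were Samd4b (0.018), Arf3 (0.021) and Fabp5 (0.039), and Ctnna1 ranked 82. Samd4b encodes an RNA-binding protein and stood at 40.1 and 30.7 CPM in siPwp1, against 79.4 and 38.7 CPM in siControl. Closeness over 4 libraries is given as a description only.

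Around the members, 6 lists of related genes gave 0 calls by edgeR and 0 by DESeq2, and 1 listed gene, Lef1, had an unadjusted edgeR p under 0.05. Of the 15 paralogs of the members, 11 were tested, with 1 separated higher and 4 separated lower and a median log2 fold change of -0.46. The shares over all genes, for this and the other lists, were 14.7% separated higher and 14.1% separated lower. Pkp4, a relative of p120-catenin, averaged 12.5 ± 1.64 CPM in siPwp1 and 21.2 ± 2.19 CPM in siControl (SD, n = 2 each), and its log2 fold change of -0.77 (SE 0.345) had an edgeR adjusted p = 0.9998. Rhoc, a relative of RhoA, averaged 2.90 ± 0.599 CPM in siPwp1 and 6.56 ± 2.46 CPM in siControl. Rdx, which encodes radixin, was the more abundant relative of Ezr, at 21.2 TPM in siPwp1 and 25.5 TPM in siControl on average, against 3.43 and 5.85 TPM for Ezr. Jup, which encodes plakoglobin, the relative of beta-catenin, was at 15.1 and 16.5 CPM in siPwp1, against 14.2 and 10.9 CPM in siControl, so its order of libraries was not that of Ctnnb1. Cdh3, which encodes P-cadherin, reached at most 0.32 TPM, in siControl replicate 1, Myh14 averaged 0.085 TPM in siPwp1 and 0.205 TPM in siControl, and Myh11 had no count. Ctnnal1, a relative of alpha-catenin, averaged 68.4 ± 4.35 CPM in siPwp1 and 74.0 ± 1.47 CPM in siControl.

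Among 15 genes counted as adherens junction partners, 1 was separated higher and 4 lower, with a median log2 fold change of -0.31. Pvr, with a log2 fold change of -0.26, is among the 15 only through a gene synonym. Enah, an actin filament elongation factor, averaged 202.3 ± 5.69 CPM in siPwp1 and 332.1 ± 136 CPM in siControl, and Mllt4, which encodes afadin, 41.3 ± 5.12 and 56.9 ± 1.13 CPM in the same order. Of 18 genes of actin and its regulators, 0 were separated higher and 2 lower (median -0.30), and 13 were highest in siControl replicate 1, against 31.2% of all genes. Actr3, a subunit of the Arp2/3 complex, averaged 171.1 ± 54.3 CPM in siPwp1 and 289.9 ± 124 CPM in siControl, and Flna, the actin crosslinker filamin A, 5.97 ± 2.0 and 10.1 ± 4.01 CPM. The 8 partners of the membrane-cortex linkers had 1 separated higher and 2 lower (median -0.30). Among them the kinase gene Slk averaged 16.6 ± 4.09 CPM in siPwp1 and 24.5 ± 1.39 CPM in siControl, and Stk10 had 78 and 86 counts in siPwp1, against 0 and 38 in siControl.

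The 12 tested light chains and regulators of myosin II had a median log2 fold change of -0.05, with 1 separated higher and 3 lower, and 4 were highest in siControl replicate 1. Rock2, which encodes a kinase that acts on myosin light chain, averaged 65.6 ± 5.07 CPM in siPwp1 and 82.4 ± 0.799 CPM in siControl, and Ppp1cb, a myosin phosphatase subunit, 154.0 ± 12.2 and 198.6 ± 24.9 CPM. The 11 genes of beta-catenin turnover and its transcription factors had a median of 0.07, with 1 separated higher and 0 lower. That gene was Lef1, a partner of beta-catenin in Wnt signalling, with 52 and 45 counts in siPwp1, against 1 and 1 in siControl (edgeR unadjusted p = 0.00569, adjusted p = 0.9998). Axin2, a Wnt target, averaged 0.363 ± 0.326 CPM in siPwp1 and 1.07 ± 0.799 CPM in siControl.

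**Figure D5:**
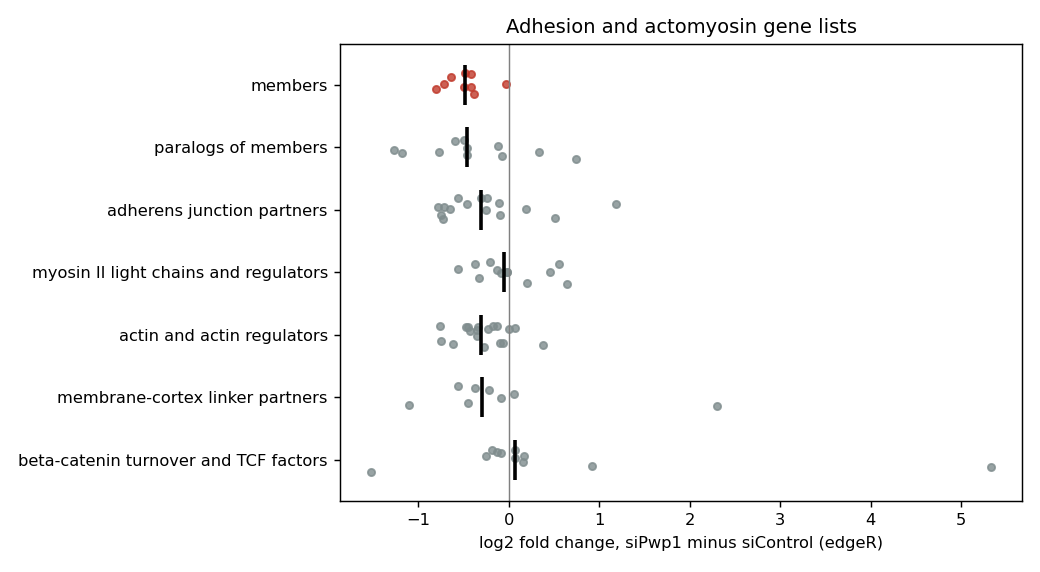
Log2 fold change of each tested gene, siPwp1 minus siControl, from edgeR, by list, with the members in red and a black bar at each list's median. The members lie between -0.81 and -0.03, and Lef1 is the point at 5.34.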

How the data were processed

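RNA of 4 libraries of pooled morulae was sequenced after a SMART-Seq v4 preparation, per the labels' protocols. The deposited files give, per the file headers, expected counts per gene, TPM and a transcript length (another number, in bases) for each library. STAR 2.7.10, RSEM 1.3.3 and mm10 are named in the submitters' processing notes. The sources used here state neither trimming, nor annotation release, nor strand setting. Expected counts were rounded, and edgeR 4.0.16 (R 4.3.3) ran its quasi-likelihood test with group as the only term, filterByExpr (minimum count 10), TMM scaling and Benjamini-Hochberg adjustment over 13585 genes at 0.05, two-sided. The TPM made by the authors served for levels between genes and in limma 3.58.1 on log2(TPM + 1), for genes with a mean of at least 1 TPM. DESeq2 1.42.0 was the other count test. Standard errors were taken from the F statistic and the fold change. Separated means that both siPwp1 libraries lie above, or both below, both siControl libraries. The lists give counts and medians. For each list of related genes the 2 genes of smallest p are named, plus the most abundant paralog of each member. Genes named from the lists of cell markers are examples and were not picked by p. Members and lists were chosen with earlier results of these data known, and motifs and printed promoters after the values were seen. Leaving out each library, no filter, other scaling and the replicate block were the alternatives. One further list of related genes is not reported here.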

Additional observations from a re-analysis of the deposited data

How the results depend on the processing

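With 2 libraries per group, even the 7.83-fold lower Pwp1 was not called by edgeR with group as the only term. The outcome for Pwp1 under the other settings is not given here. Called genes numbered 0 in edgeR with all libraries, 106 without a filter, 44 with the DESeq2 test and 80 with the replicate block. Leaving out 1 library, so that 1 group is a single library assumed to vary like the other group, gave 6 (without siControl replicate 1) to 142 (without siControl replicate 2). DESeq2 size factors and limma gave 0. Under each of these settings 0 of the 9 members were called. With the replicate block 2 members had an unadjusted p under 0.05, against 5.31% of all genes higher and 4.17% lower, and the smallest adjusted p was 0.305 for Cdh1. The replicate number is not stated to mark a shared batch, and same-numbered libraries deviated from their group means with a correlation of 0.317 over genes. Members with groups that do not overlap numbered 0 in CPM, 1 in TPM (Ctnnd1), and 2 (without siControl replicate 1 or siPwp1 replicate 2) to 8 (without siControl replicate 2) with 1 library left out. Of all genes, 28.7% did not overlap in CPM and 28.5% in TPM, and 56.2% (without siPwp1 replicate 2) to 72.6% (without siControl replicate 2) with 1 left out, since 1 library against 2 overlaps less often. Of the 81 refitted member fold changes, 76 kept their sign. With 1 library left out, the log2 fold change ranged from -0.7519 to 0.0103 for Ctnnd1, from -0.8768 to 0.039 for Vcl and from -0.8875 to 0.28 for Myh10, each lowest without siControl replicate 2 and above 0 without siControl replicate 1. For Rhoa it ranged from -0.1824 to 0.1219, above 0 without siPwp1 replicate 1 and, at 0.11, without siControl replicate 2. Separated ratios numbered 2 of 5, and 3 to 5 (without siPwp1 replicate 1) with 1 library left out. TPM ratios to Cdh1 of the 12773 other tested genes above 0 in every library did not overlap in 35.2%. With 1 library left out they did not overlap in 48.3% to 89.0%. The cause of these changes was not tested.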
